A study of Mus musculus with 16 samples.

Results

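Eosinophil granule genes were followed in RNA from a mouse cell population enriched for haematopoietic stem cells, measured on 16 Illumina bead arrays. The 8 genes were Prg2, Prg3, Epx, Ear2, Ear4, Ear6, Ear10 and Ear12, and each was read by 1 of the 25697 probes in the deposited table. They are 8 of the 9680 genes that were tested. The genes were chosen by their lower signal on the interferon arrays of both genotypes, so their interferon values, and how many of them were past a threshold, are given as a description.

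The arrays form 4 groups of 4, per the labels all from mice of the strain spelled C57B16. One pair of groups was WT cells carrying the CD45.1 surface allele, from mice given vehicle or interferon alpha at 10000 units per day for 4 weeks. The other pair was Jak2VF cells, labelled as a knock-in and carrying CD45.2, under the same vehicle or interferon treatment. Jak2VF stands for an activated form of the kinase Jak2 that is known from polycythemia vera, a disease with too many red cells. The labels do not state the promoter or Cre behind the knock-in, how the cells were sorted, whether both genotypes shared recipient mice, or whether the 4 arrays of a group were separate animals. The p-values below therefore measure the spread between these arrays, which may be technical in part.

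Eosinophils are granulocytes with large granules whose proteins are toxic to parasites and to tissue. The crystalline core of the granule is major basic protein, encoded by Prg2, with a close relative encoded by Prg3. The matrix around it holds eosinophil peroxidase, encoded by Epx, and the eosinophil-associated ribonucleases, a mouse gene family of recent duplicates named Ear, which belong to the ribonuclease A superfamily. Their messages are made mostly in the committed precursors of the marrow, where factors of the GATA, CEBP and ETS families act on granule genes, and granule proteins are stored before the cell leaves for the tissues. In the bulk RNA measured here, fewer cells of a type and less RNA per cell cannot be told apart.

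RefSeq gene tables of the mouse build GRCm38.p6 held 6 of the 8 genes, with Prg2 and Prg3 next to each other on chromosome 2, Epx on chromosome 11, and Ear2, Ear6 and Ear10 on chromosome 14. RefSeq promoters of that build were matched for 5 of the 8, and the 250 bases before each start were searched on both strands. The stretches below are the 130 bases just before the start, 5′ to 3′ on the gene's strand, shown because the 3 Ear genes are near copies of each other and because Prg3 and Epx lie outside that family. Rnase2b, an Ear copy that is named Ear5 on the array and is not among the 8, is printed for comparison. Capitals mark matches to the motifs named after the sequences.
Ear2, chr14:44102524-44102653, plus strand: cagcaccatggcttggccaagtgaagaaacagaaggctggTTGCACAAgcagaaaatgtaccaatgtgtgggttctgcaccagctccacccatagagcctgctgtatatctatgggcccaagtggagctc
Ear10, chr14:43923597-43923726, minus strand: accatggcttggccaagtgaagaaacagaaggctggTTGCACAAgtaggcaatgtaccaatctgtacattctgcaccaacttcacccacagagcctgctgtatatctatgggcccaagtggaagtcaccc
Ear6, chr14:51853638-51853767, plus strand: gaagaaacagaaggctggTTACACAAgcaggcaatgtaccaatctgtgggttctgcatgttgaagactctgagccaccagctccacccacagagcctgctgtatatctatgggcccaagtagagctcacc
Rnase2b, chr14:51162130-51162259, plus strand: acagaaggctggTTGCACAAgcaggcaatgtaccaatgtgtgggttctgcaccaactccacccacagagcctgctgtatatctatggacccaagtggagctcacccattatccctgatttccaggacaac
Prg3, chr2:84988085-84988214, plus strand: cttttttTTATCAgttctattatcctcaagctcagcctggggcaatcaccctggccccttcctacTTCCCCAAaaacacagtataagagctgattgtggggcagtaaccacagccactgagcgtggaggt
Epx, chr11:87875537-87875666, minus strand: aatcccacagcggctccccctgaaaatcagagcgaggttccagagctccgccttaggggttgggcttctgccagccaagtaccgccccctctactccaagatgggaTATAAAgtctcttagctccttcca

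Over the aligned part of the 250 bases, Ear2 and Ear10 shared 94.3% of bases, Ear10 and Ear6 shared 93.1%, and Ear2 and Ear6 shared 93%. The same comparison with Rnase2b gave 92.5% for Ear10, 93.2% for Ear2 and 93.3% for Ear6, and with Rnase2a, named Ear11 on the array, 86.7%, 86.4% and 88.2%. The CEBP motif TTNNGNAA was found in 4 of the 5 promoters, those of Prg3, Ear2, Ear6 and Ear10, and in 36.9% of the 32841 RefSeq promoters. The 3 Ear matches and that of Rnase2b lie in one shared stretch, so they are not separate instances. The GATA motif in the form TGATAA was found only in Prg3 among the 5, as its reverse complement beginning 123 bases before the start, and in 7.94% of all promoters. A TATAAA box was found only in Epx, 24 bases before the start, against 12.4% of all promoters. The GATA form AGATAA, present in 9.99% of all promoters, was in none of the 5. Likewise none of the 5 held the ETS motif GAGGAA (23.3% of all), the STAT motif TTCNNNGAA (7.02%) or an interferon response motif, GAAA and GAAA with any 2 bases between them (2.98%). A match describes letters in this window and is not a site of binding.

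The arrays differed in brightness before normalization. Mean intensity over all probes ran from 162 to 1130 arbitrary units, and 31.9% to 50.8% of probes had a detection p under 0.05. That p-value was taken to be against the array's negative controls. On the log2 scale the interferon arrays were brighter than the vehicle arrays by 1.13 in WT and by 0.81 in Jak2VF. The 3 dimmest arrays were WT vehicle array 3, WT vehicle array 1 and WT interferon array 2. Of 14 stem cell markers 12 passed the detection filter. At least 1 probe each of Ly6a, Cd34, Meis1, Mllt3 and Gata2 was detected on 16 of 16 arrays, while Procr was detected on 6 and Hlf on 5, and Fgd5 did not pass the filter.

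Major basic protein separated the treatments before any normalization. The raw intensity of Prg2 was 3868, 6018, 4768 and 3595 on the WT vehicle arrays and 1303, 107, 1191 and 1760 on the WT interferon arrays. In Jak2VF it was 13875, 5313, 5977 and 3446 with vehicle and 687, 1387, 444 and 137 with interferon. Every vehicle array was thus brighter for Prg2 than every interferon array. After background correction and quantile normalization, the log2 level of Prg2 was 13.46, 13.20, 14.58 and 12.53 in WT vehicle and 9.19, 5.23, 9.98 and 10.09 in WT interferon. The corresponding levels in Jak2VF were 13.90, 12.34, 13.19 and 12.28 with vehicle and 9.38, 9.66, 7.29 and 5.15 with interferon. Within each interferon group 1 array, WT array 2 and Jak2VF array 4, held Prg2 below detection while the other 3 arrays still detected it. The mean log2 level was 13.44 ± 0.85 in WT vehicle, 8.62 ± 2.30 in WT interferon, 12.93 ± 0.77 in Jak2VF vehicle and 7.87 ± 2.10 in Jak2VF interferon (SD, n = 4 each). The difference was -4.82 (SE 1.06) in WT and -5.06 (SE 1.06) in Jak2VF on the log2 scale, which is 28.2-fold and 33.3-fold lower with interferon.

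Prg3, the relative of major basic protein, was at the detection limit on most Jak2VF interferon arrays. Its log2 level was 9.28, 8.82, 11.25 and 8.04 in WT vehicle and 5.12, 4.46, 5.67 and 5.75 in WT interferon. In Jak2VF the level of Prg3 was 9.60, 7.53, 8.61 and 7.63 with vehicle and 4.63, 5.48, 4.68 and 4.70 with interferon. The groups did not overlap in either genotype, and only array 2 of the Jak2VF interferon group still detected Prg3. The means of Prg3 were 9.35 ± 1.37 and 5.25 ± 0.60 in WT and 8.34 ± 0.97 and 4.87 ± 0.41 in Jak2VF (vehicle, then interferon, SD, n = 4 each), a log2 difference of -4.10 (SE 0.59) in WT and -3.47 (SE 0.59) in Jak2VF. Ssrp1, the measured gene closest to this pair and a histone chaperone subunit, differed by 0.03 (SE 0.09) in WT and 0.06 (SE 0.09) in Jak2VF, and neither passed the limma test.

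Eosinophil peroxidase, which makes hypobromous acid from bromide, followed the same order of groups. The log2 level of Epx was 9.27, 8.70, 10.80 and 8.31 in WT vehicle and 5.25, 4.81, 5.42 and 6.003 in WT interferon. In Jak2VF the level of Epx was 9.28, 8.10, 9.14 and 8.23 with vehicle and 5.95, 5.63, 5.005 and 4.65 with interferon. No interferon array came within the vehicle range. The log2 difference was -3.90 (SE 0.48) in WT and -3.37 (SE 0.48) in Jak2VF, or 15.0-fold and 10.4-fold lower. Epx was detected on 3 of 4 interferon arrays in WT and 2 of 4 in Jak2VF, so these folds rest on values near the detection limit.

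**Figure D1:**
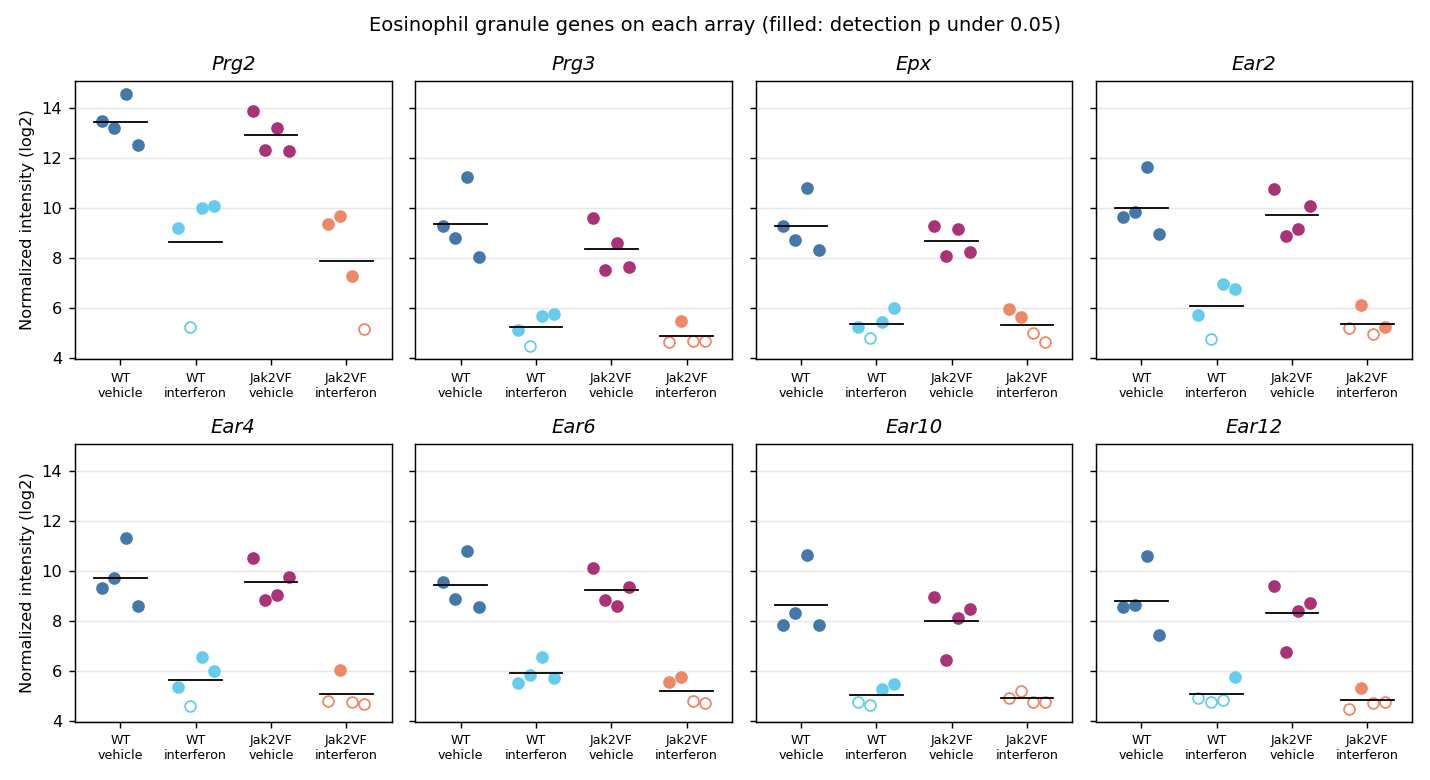
Normalized log2 intensity of the 8 eosinophil granule genes (1 panel each) on the 16 arrays, in the order of replicate number within each group; filled points have a detection p under 0.05, open points do not, and bars are group means. Every vehicle point is filled and lies above every interferon point of the same genotype, and many interferon points are open.

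The eosinophil-associated ribonucleases, which degrade RNA and whose human relatives act against RNA viruses, gave the same separation on 5 probes. The log2 level of Ear2 was 9.63, 9.86, 11.63 and 8.96 in WT vehicle and 5.73, 4.78, 6.97 and 6.77 in WT interferon. In Jak2VF the level of Ear2 was 10.75, 8.86, 9.15 and 10.06 with vehicle and 5.19, 6.13, 4.95 and 5.23 with interferon. Both vehicle groups were above both interferon groups for Ear2. The log2 difference of Ear2 was -3.96 (SE 0.59) in WT and -4.33 (SE 0.59) in Jak2VF. Ear2 was detected on 3 of 4 interferon arrays in WT and 2 of 4 in Jak2VF.

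Ear4 and Ear6 behaved alike in size. Mean log2 levels of Ear4 were 9.73 ± 1.17 in WT vehicle, 5.61 ± 0.84 in WT interferon, 9.53 ± 0.75 in Jak2VF vehicle and 5.06 ± 0.66 in Jak2VF interferon (SD, n = 4 each). Its log2 difference was -4.12 (SE 0.56) in WT and -4.47 (SE 0.56) in Jak2VF, and it was detected on 3 and 1 of the 4 interferon arrays. Ear6 was the one gene of the 8 detected on 4 of 4 WT interferon arrays, at 5.51, 5.81, 6.56 and 5.69, against 9.56, 8.86, 10.81 and 8.54 with vehicle. In Jak2VF, Ear6 was at 10.10, 8.84, 8.58 and 9.34 with vehicle and 5.56, 5.76, 4.797 and 4.69 with interferon, where 2 of 4 arrays detected it. Its log2 difference was -3.55 (SE 0.45) in WT and -4.01 (SE 0.45) in Jak2VF. Mettl17, the measured neighbour of Ear6 and a mitochondrial ribosome assembly factor, differed by 0.48 (SE 0.28) and 0.10 (SE 0.28) in these comparisons and did not pass the limma test.

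Ear10 and Ear12 were detected on the fewest interferon arrays. The log2 level of Ear10 was 7.83, 8.31, 10.63 and 7.82 in WT vehicle and 4.76, 4.65, 5.28 and 5.45 in WT interferon, a difference of -3.61 (SE 0.58). In Jak2VF the level of Ear10 was 8.96, 6.44, 8.10 and 8.47 with vehicle, and with interferon it was not above background on any of the 4 arrays. Ear10 was therefore at least 6.91-fold lower with interferon in Jak2VF, set against the higher of its own level and the lowest signal of a detected probe on each array, and this bound holds for this normalization only. The measured means behind it were 7.99 ± 1.09 and 4.89 ± 0.20 (SD, n = 4 each). Ear12 had mean log2 levels of 8.79 ± 1.32 and 5.06 ± 0.47 in WT and 8.31 ± 1.13 and 4.81 ± 0.36 in Jak2VF, each as vehicle then interferon, and 1 of 4 interferon arrays detected it in either genotype.

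Detection over the 8 genes separated the treatments and graded the interferon arrays. All 8 were detected on each of the 8 vehicle arrays, which is also how they passed the filter of 4 arrays with a detection p under 0.05. On the WT interferon arrays 6, 1, 7 and 8 of the 8 were detected, in replicate order, and on the Jak2VF interferon arrays 3, 7, 1 and 1. The residual signal was therefore uneven between arrays of one group, and array 2 of WT and arrays 3 and 4 of Jak2VF were nearly empty of it. That WT array was among the dimmest and those Jak2VF arrays among the brightest (1130 and 928 units).

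Across the 8 genes, the median log2 difference between interferon and vehicle was -3.93 in WT, beside 0.05 over all 9680 genes, and -3.75 in Jak2VF, beside 0.00, also with Ear10 at its bound. In the limma fit over all genes, 8 of 8 were past an adjusted p of 0.05 on the lower side in both genotypes, where 1.01% of all genes were in WT and 9.46% in Jak2VF. The arrays of the treatments did not overlap for 8 of 8, where this held on the lower side for 5.1% of genes in WT and 15.9% in Jak2VF. In raw intensity the WT treatments did not overlap for 5 of the 8, and 0.0517% of the 9680 genes, 5 in number, had that pattern. In Jak2VF the raw intensities of all 8 did not overlap, as for 0.134% of genes. These shares describe how the genes were chosen and support nothing further. With the 8 WT arrays alone, or with array brightness as a covariate, 0 of the 8 were past the threshold in WT, at medians of -3.93 and -3.47. In those settings 1 and 3 of the 9680 genes were. Prg2, the most variable, was no longer past it when the 3 dimmest arrays were left out, nor without any one of WT vehicle array 1 or 3, WT interferon array 1, 3 or 4, or Jak2VF interferon array 3.

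**Figure D2:**
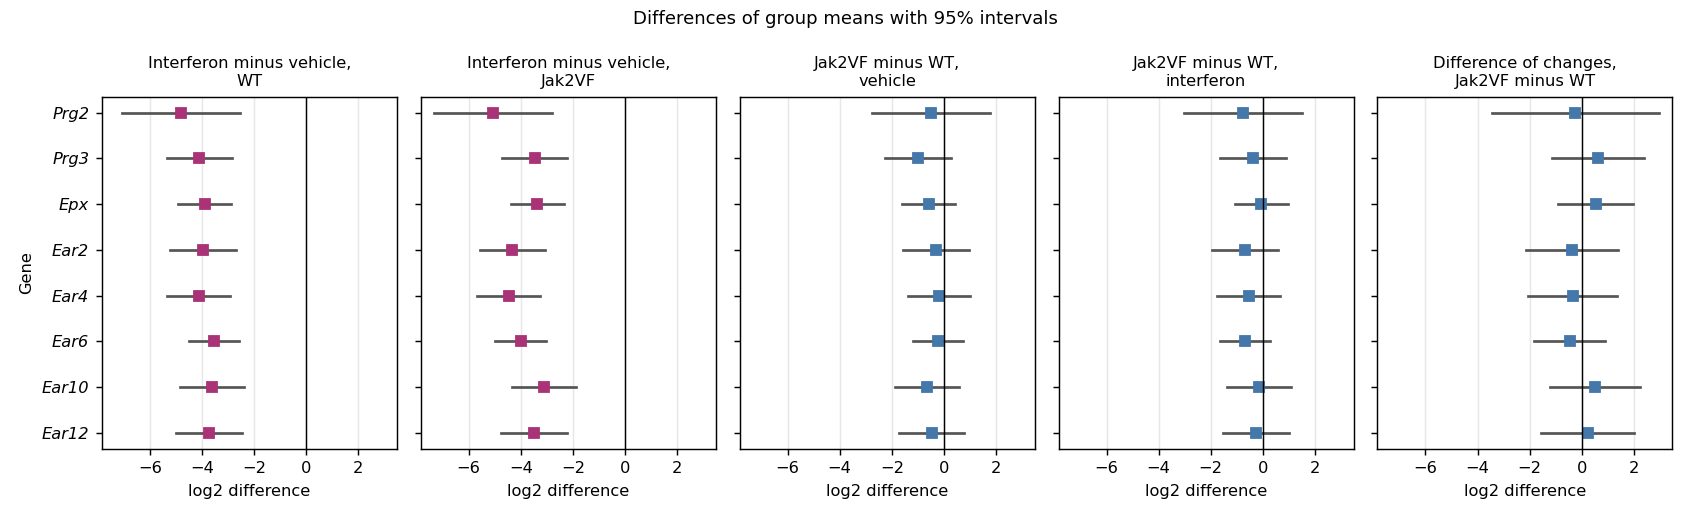
Differences of group means (squares, log2) with 95% intervals for the 8 genes in 5 comparisons: interferon minus vehicle in each genotype (red, the comparisons on which the genes were chosen), and, in blue, Jak2VF minus WT with vehicle or interferon and how far the interferon changes differ. The red squares lie between -4.82 and -3.55 in WT and, for the 7 genes other than Ear10, between -5.06 and -3.37 in Jak2VF, where Ear10 was not above background with interferon, and every blue interval includes 0.

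The genotypes were then compared, a contrast the choice of genes did not use. With vehicle, none of the 8 genes passed the limma test with Benjamini-Hochberg adjustment over all genes, where 0.424% of all genes did, and 0 of 8 had an unadjusted p under 0.05. The 8 means were lower in Jak2VF, by a median of -0.49 on the log2 scale beside 0.04 for all genes, but the arrays of the genotypes overlapped for each gene, while 4.14% of all genes were lower without overlap. The largest difference was that of Prg3 at -1.01 (95% interval -2.26 to 0.25, limma adjusted p = 0.326). The smallest was Ear4 at -0.20 (-1.40 to 1.01). For Prg2 the interval ran from -2.78 to 1.75, so a several-fold difference in either direction was not excluded by these arrays. The lower median in Jak2VF did not hold in all settings: it was 0.24 when the 3 dimmest arrays were left out and 0.065 when WT vehicle array 3 alone was.

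With interferon, 0 of 8 genes differed between the genotypes by the limma test, where 17.7% of all genes did, and 0 of 8 had an unadjusted p under 0.05. Most of the 8 were near background there. On the 4 Jak2VF interferon arrays Prg3, Ear4 and Ear12 were each detected on 1, Epx, Ear2 and Ear6 on 2, and Ear10 on 0. A difference between the genotypes could hardly show at such levels, so nothing is read from these counts. The median of the 8 was -0.46 beside 0.01 for all genes, from Prg2 at -0.75 (95% interval -3.02 to 1.51) to Epx at -0.06 (-1.07 to 0.96). Ear6 had the smallest adjusted p (-0.69, interval -1.66 to 0.28, limma adjusted p = 0.357). The genotypes overlapped for each of the 8, while 14.7% of all genes were lower in Jak2VF without overlap. No fold is given for Ear10, which was near background in both interferon groups. Within the first slide alone the median was 0.37, and within the second it was -1.20. With 2 arrays of a group per slide, the slide cannot be told apart from the arrays on it.

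The difference of the interferon changes between genotypes was also tested. The contrast is built from the changes by which the genes were chosen, lower signal with interferon in both genotypes. The choice limits what it could show, and nothing is read from the count. Among the 8 genes 0 passed the limma test, where 0.114% of all genes did, 0 had an unadjusted p under 0.05, and 4 were on each side of 0. The values ran from Ear6 at -0.46 (95% interval -1.83 to 0.91) to Prg3 at 0.63 (-1.15 to 2.40), with a median of -0.01. Epx had the smallest adjusted p (0.53, interval -0.91 to 1.97, limma adjusted p = 0.740). The widest interval was that of Prg2, -3.45 to 2.97. The sign of this median changed with the normalization, within slide 1 alone and without single arrays, as given with the alternatives. A difference between the genotypes in the interferon change was not detected, and these intervals do not show that the changes were equal.

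The 8 genes varied together within groups. Each value was taken as its deviation from the group mean, and Pearson's r was computed for the 28 pairs over 16 arrays. It ran from 0.41 to 0.98 with a median of 0.78, and the median of Spearman's rho was 0.73. The points share their arrays, and so brightness and normalization, and no test is given. On the 8 vehicle arrays alone r was between 0.78 and 0.99 with a median of 0.86. Prg2 with Prg3 reached 0.99, Prg3 with Epx 0.97 and Ear2 with Ear4 0.99. Pairs within the Ear family began at 0.80, for Ear6 with Ear10, and pairs of an Ear gene with Prg2, Prg3 or Epx ran from 0.78 to 0.88, so these ranges overlapped. On the 8 interferon arrays, near the detection limit, r ran from 0.02 for Ear6 with Ear12 to 0.97 for Prg3 with Ear2, with a median of 0.69. Leaving out WT vehicle arrays 3 and 4, which were farthest from their group mean, the median over 14 arrays was 0.67.

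**Figure D3:**
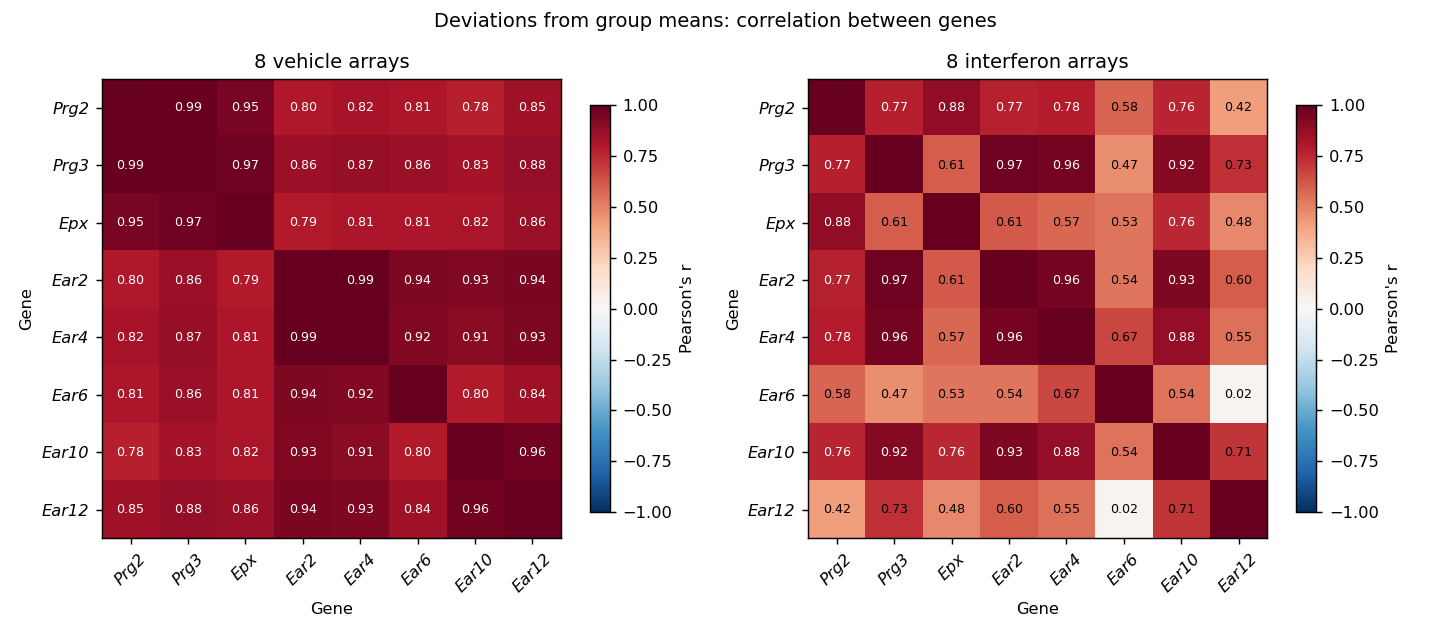
Pearson's r between the 8 genes over deviations from group means, on the 8 vehicle arrays (left) and the 8 interferon arrays (right). On the vehicle arrays Prg2, Prg3 and Epx pair at 0.95 to 0.99, the Ear genes among themselves at 0.80 to 0.99 and the pairs between them at 0.78 to 0.88, and Ear6 with Ear12 is near 0 on the interferon arrays.

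Single arrays stood out for the whole set. WT vehicle array 3 was the highest of its group for 8 of 8 genes and array 4 the lowest for 8 of 8. Jak2VF vehicle array 1 was the highest for 8 of 8 and array 2 the lowest for 6. Among interferon arrays, WT array 2 was lowest for 7 and Jak2VF array 2 highest for 7. WT vehicle array 3 was also the dimmest of the 16, at 162 units. Raw Prg3 was 300 units on that array, inside the range of 212 to 321 units of its group, while its normalized log2 level of 11.25 was above the other 3. The part of brightness in the spread of the granule genes was not tested.

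**Figure D4:**
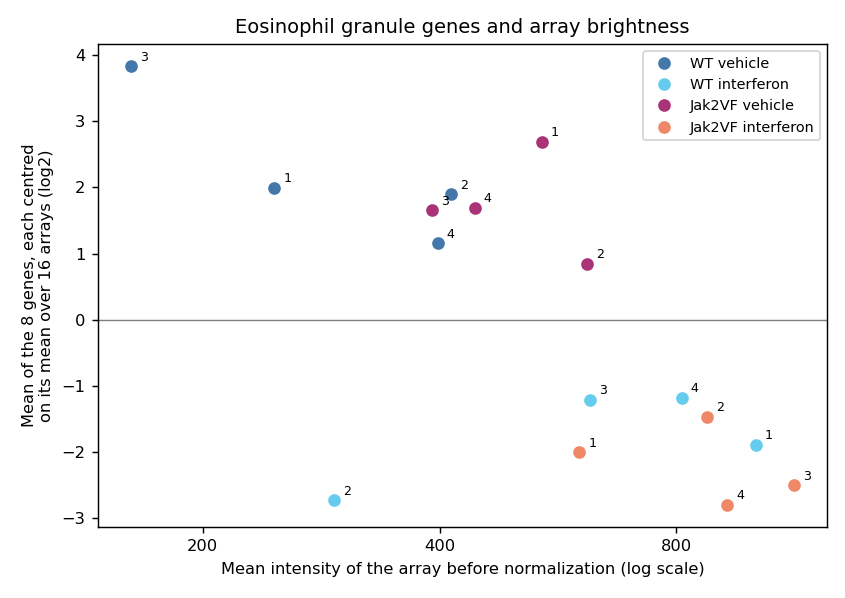
Mean of the 8 genes on each array (each gene centred on its mean over 16 arrays, log2) against the array's mean raw intensity (log axis), coloured by group and numbered by replicate. The vehicle arrays lie at 0.85 to 3.84 and the interferon arrays at -2.80 to -1.18, and WT interferon array 2 is low at an intensity of 294 units, dimmer than every vehicle array except WT vehicle arrays 1 and 3.

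The Ear probes may read each other's messages. No probe sequences were used here, and the family's messages are near copies, so the 5 Ear probes are not taken as 5 separate genes. Ear2 and Ear4 had an r of 0.98 and Ear10 and Ear12 one of 0.94 over deviations on 16 arrays. Probes of other copies gave a contrast: Ear5, now Rnase2b, and Ear11, now Rnase2a, were detected on 0 of 16 arrays, with raw intensities of 84 to 116 and 83 to 114 units. The signal was therefore carried by some probes of the family and not by all.

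Among the other 9672 genes, those most like the granule genes over the 16 arrays were named by Pearson's r with the mean of the 8 centred genes. They were Clnk, an adaptor of immunoreceptor signalling (0.96), Ikbke, an innate immune kinase (0.91), Mzb1, a chaperone of antibody-secreting cells (0.90), Camk2a, a calcium-dependent kinase (0.90), Uap1l1 (0.89), Jchain, which joins antibody units (0.88), Dctn4, a dynactin subunit (0.88), and LOC432879 (0.88). Much of this likeness lay between groups. After group means were taken out, r was 0.77 for Clnk, 0.72 for Jchain and 0.81 for Dctn4, but -0.02 for Mzb1. The interferon difference of Clnk was -1.34 (SE 0.22) in WT and -1.05 (SE 0.22) in Jak2VF.

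Other genes that eosinophils use were read beside the 8. Because the 8 were chosen by their lower signal with interferon, smaller differences in other genes follow from the choice, and nothing is read from that contrast. Of 13 listed receptors and lipid mediator genes 8 were measured, and in WT 0 passed the limma test in either direction, where 2.27% of all genes did. Their median there was -0.24, and Il3ra, the alpha chain of the interleukin 3 receptor, had the smallest p (-0.81, SE 0.23, adjusted p = 0.0632 by limma). In Jak2VF 1 was higher and 4 were lower, where 16% of all genes passed. Il1rl1, the receptor of interleukin 33, rose by 1.38 (SE 0.31), and Ltc4s, which makes leukotriene C4, fell by 1.11 (SE 0.29). Csf2rb, the beta chain shared by the receptors of interleukin 3 and interleukin 5, was not above background on the 4 Jak2VF interferon arrays and at least 1.57-fold lower there (adjusted p = 0.00495 by limma). Of the listed surface receptors of eosinophils, Ccr3 was detected on 0 and Il5ra on 2 of 16 arrays, and the lipoxygenase Alox15 on 0. The granule genes were thus present on vehicle arrays on which Ccr3 was below detection.

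Regulators of the lineage were measured for 13 of 15. In WT 0 passed, and Id2, an inhibitor of helix-loop-helix factors, had the smallest p (-1.26, SE 0.32, adjusted p = 0.0523 by limma). In Jak2VF the brightest probe of the lymphoid and myeloid factor Ikzf1 rose by 0.52 (SE 0.15). A dimmer probe of Ikzf1, detected on 15 arrays, did not rise there. Its mean log2 levels in Jak2VF were 6.78 with vehicle and 6.55 with interferon. Xbp1, a factor of secretory cells that eosinophil precursors need, fell by 0.50 (SE 0.13) in Jak2VF. Cebpe, a CEBP factor of granulocyte maturation named here after its values were seen, was at -2.31 (SE 0.63, adjusted p = 0.0590 by limma) in WT and -1.55 (SE 0.63, adjusted p = 0.115) in Jak2VF. The list's median was -0.01 in WT and -0.50 in Jak2VF.

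Granule packaging and release genes were measured for 9 of 10. In WT only Snap23, a membrane fusion protein, passed, and its brightest probe rose by 0.52 (SE 0.12). A dimmer probe of Snap23, detected on 13 arrays, went the other way in WT. Its mean log2 levels there were 6.33 with vehicle and 5.31 with interferon, so the direction for Snap23 depends on the probe. In Jak2VF 4 fell, where 9.46% of all genes did. The largest falls were those of the protease inhibitor Serpinb1a (-1.33, SE 0.20), the granule membrane protein Cd63 (-1.31, SE 0.18) and Rab27a, a small GTPase of granule docking (-0.83, SE 0.17). Other members and relatives of the ribonuclease A family were measured for 3 of 18. None of them passed in WT, where Rnase12 had the smallest p (-0.44, SE 0.27, adjusted p = 0.268 by limma), and Rnase6, a ribonuclease of phagocytes, fell by 0.86 (SE 0.18) in Jak2VF.

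Markers of other cells moved beside the granule genes, and their part in the result was not tested. Genes listed for neutrophil secondary granules, 9 of 12 measured, had medians of -1.65 in WT and -0.53 in Jak2VF. The list also holds genes outside these granules, S100a8 and S100a9. These had its highest mean log2 levels on WT vehicle arrays, 12.63 and 11.15, and so lead its sum. The summed log2 level of the list ran from 12.13 to 14.74 on WT vehicle arrays and 9.10 to 11.43 on WT interferon arrays. In Jak2VF the sums were 11.27 to 14.14 and 10.23 to 10.39. The calcium-binding S100a9 was at -3.22 (SE 0.71) in WT and -2.60 (SE 0.71) in Jak2VF and its partner S100a8 at -3.13 (SE 0.66) and -2.43 (SE 0.66), and both fell in both genotypes by the limma test. Chil3, a chitinase-like lectin of myeloid cells, fell by 2.36 (SE 0.52) in WT. Ltf, Camp, Lcn2 and Ngp of this list, named after their values were seen, did not pass the limma test in either genotype. Mmp8 and Cd177, markers of mature neutrophils, did not pass the detection filter. Other genes of the list did: the brightest probes of Ltf, Camp and Chil3 were detected on 13 of 16 arrays. That of Lcn2 was detected on 12 and that of Mmp9 on 11. Genes listed for primary granules, 7 of 9 measured, held 0 calls in WT. The smallest p there was that of Hp, haptoglobin, a listed gene outside these granules (-1.20, SE 0.43, adjusted p = 0.0927 by limma). In Jak2VF, where 9.46% of all genes were called lower, 2 of them fell, the protease Prtn3 (-1.54, SE 0.38) and the lysozyme Lyz2 (-1.32, SE 0.21). Their sums ran from 14.51 to 15.997 and 14.26 to 14.66 in WT and from 13.69 to 15.69 and 13.20 to 13.46 in Jak2VF, each as vehicle then interferon.

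Mast cell and basophil genes, markers of other granulated lineages, were measured for 7 of 13. In WT 0 passed, and Ms4a2, the beta chain of the IgE receptor, had the smallest p (adjusted p = 0.0507 by limma). It was not above background on the 4 WT vehicle arrays, with mean log2 levels of 4.62 there and 6.15 with interferon. In Jak2VF Fcer1a, its alpha chain (-1.32, SE 0.32), and the carboxypeptidase Cpa3 (-0.74, SE 0.23) fell. Their summed level was 11.79 to 11.93 on WT vehicle and 11.54 to 11.85 on WT interferon arrays, and 11.31 to 11.68 and 10.15 to 11.19 in Jak2VF. The mast cell proteases Mcpt4 and Tpsb2 were detected on 0 of 16 arrays. Of the monocyte and macrophage genes, 8 of 11 measured, 0 passed in WT, where the complement gene C1qa had the smallest p (adjusted p = 0.0719 by limma) and was not above background on the 4 vehicle arrays. Its relative C1qc was not above background on the 4 Jak2VF vehicle arrays and at least 1.22-fold higher with interferon (adjusted p = 0.0162 by limma).

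Of B and plasma cell genes, 5 of 9 were measured, and 2 of these 5 fell in WT and 3 in Jak2VF. Over all genes 1.01% were called lower in WT and 9.46% in Jak2VF. In WT, Mzb1 fell by 4.41 (SE 0.38), and Jchain, not above background on the 4 interferon arrays, was at least 3.50-fold lower (adjusted p = 0.00638 by limma), while Xbp1 did not pass (-0.14, adjusted p = 0.434). Mzb1 was detected on 1 of 4 WT interferon arrays, so the size of its fall rests on values near background. In Jak2VF, Mzb1 was not above background on the 4 interferon arrays and at least 7.37-fold lower (adjusted p = 0.000313 by limma), and Cd79b, a B cell receptor chain (-1.35, SE 0.24), and Xbp1, given above, fell. Jchain did not pass there (adjusted p = 0.0652 by limma), with mean log2 levels of 5.83 with vehicle and 4.77 with interferon. The summed level of the 5 was 11.73 to 12.26 and 11.39 to 11.65 in WT, vehicle then interferon. In Jak2VF it was 11.56 to 11.97 and 10.78 to 11.15. Xbp1 was the brightest of the 5, with mean log2 levels of 11.30 on WT vehicle and 11.16 on WT interferon arrays. The sum in WT therefore hardly shows the fall of Mzb1, whose means there were 9.31 and 4.90. Of red cell precursor genes, 8 of 9 were measured, and none fell. In WT, where 2.27% of all genes passed in either direction, 2 rose, among them the erythroid factor Klf1 by 1.13 (SE 0.19). In Jak2VF, where 16% of all genes passed, 5 rose, led by the Rh protein Rhag at 2.58 (SE 0.38) and the membrane protein Ermap at 2.33 (SE 0.42). The globin genes Hba-a1 (-0.02 in WT, -0.57 in Jak2VF) and Hbb-b1 (-0.75 and -0.28) and the anion exchanger Slc4a1 (-0.33 and -0.18), named after their values were seen, did not pass. Stem cell genes, 12 of 14 measured, had 0 calls in WT, with Cd34 at the smallest p (-0.83, SE 0.24, adjusted p = 0.0644 by limma). In Jak2VF 5 fell, where 9.46% of all genes did, among them Cd34 (-1.65, SE 0.24) and Thy1 (-1.36, SE 0.39).

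**Figure D5:**
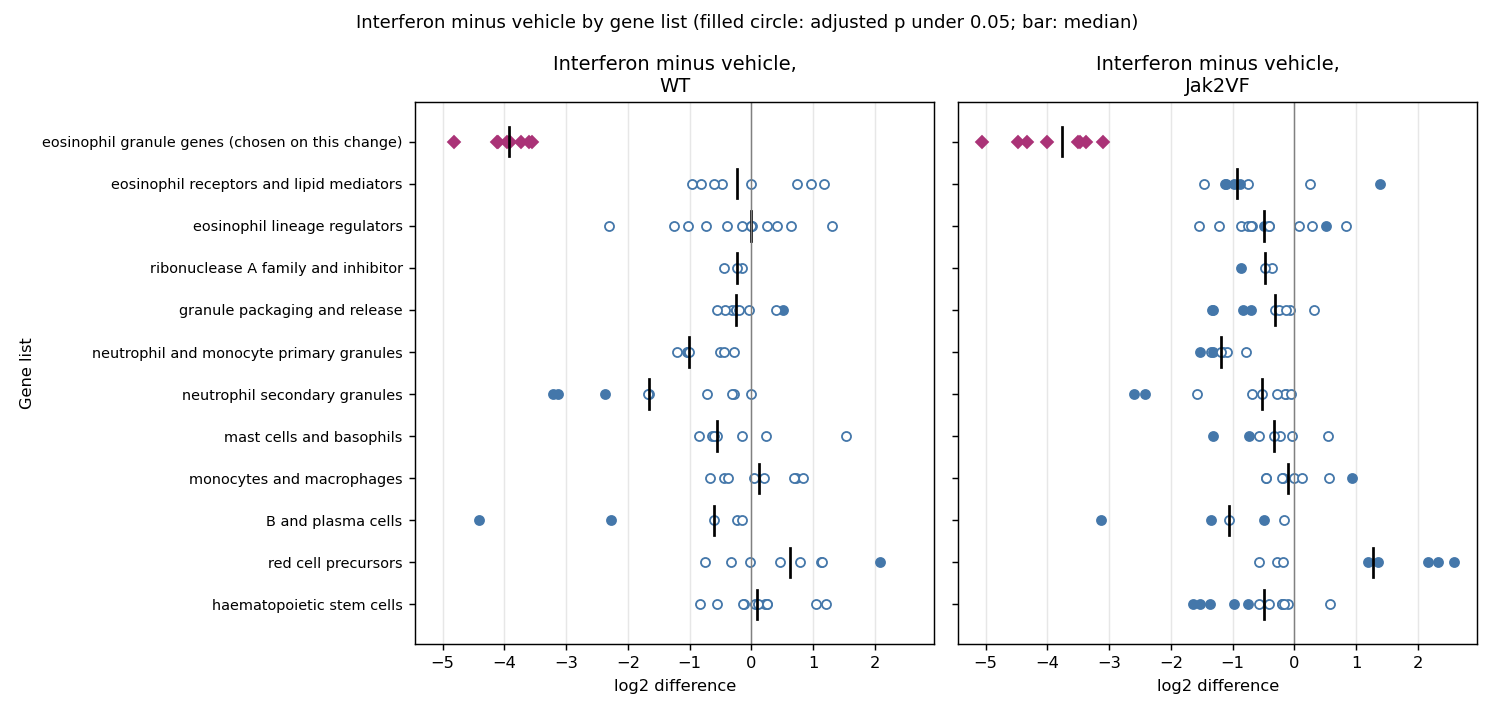
Log2 difference between interferon and vehicle for each measured gene of 11 lists (circles, filled where the limma adjusted p is under 0.05) and for the 8 eosinophil granule genes (diamonds), in WT and Jak2VF, with the list median as a bar. In WT the diamonds lie between -4.82 and -3.55, a range in which Mzb1 (-4.41) is the only listed gene. Mzb1 was detected on 1 of 4 WT interferon arrays. In Jak2VF the diamonds other than Ear10 lie between -5.06 and -3.37, and a difference against a group not above background, such as that of Ear10 or Mzb1 there, is plotted as measured.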

How the data were processed

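Biotin-labelled RNA was hybridised to 16 Illumina bead arrays, 4 per group. The authors' deposited table holds average intensity per probe and array, and a detection p-value, per the file headers. The detection p-value was taken to be against negative controls, which the headers do not state. The authors' deposited processed values, a linear intensity with column medians between 119 and 120, served as an alternative; how they were normalized or background-corrected is not stated in any header or label. Values were corrected and normalized with neqc in limma 3.58.1 under R 4.3.3 (normexp by detection p-values, offset 16, quantile, log2). Probes with a detection p under 0.05 on at least 4 arrays were kept (13374), and the brightest probe stood for a gene (9680 genes). Older symbols were updated through the RefSeq table for 7082 probes. A linear model with 4 group means was fitted by lmFit, and eBayes moderated the 12 residual degrees of freedom with 2.73 prior ones, and p-values were adjusted by Benjamini-Hochberg over all genes in each comparison. The number of arrays limits the precision.

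Groups come from the labels, and array numbers within a group are in accession order. The arrays lie on 2 slides with 2 arrays of each group on each. Alternatives were another background step, scaling, filter and probe rule, the authors' values, the slide as a block or alone, only the groups compared, brightness as a covariate, and arrays left out. The 8 genes, the gene lists and the tests were chosen with earlier results of these data known. Named were the 8 genes, up to 3 called genes per list with the largest change (where a list had no call, the gene of smallest p), and the 8 genes most like them; some listed genes are not reported here.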

Additional observations from a re-analysis of the deposited data

Results flagged for a closer look

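In 3 of the 32 combinations of gene and group, 1 array stood far from the other 3 by Dixon's test at the 95% level; chance marks about 1 group in 20. Prg3 in the Jak2VF interferon group was highest on array 2, at a log2 level of 5.48. Ear4 in the same group was highest on the same array, at 6.04. Ear12 in the WT interferon group was highest on array 4, at 5.76. Each was the only array of its group on which that gene was detected. The cause was not tested.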

How the results depend on the processing

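The lower level with interferon kept its direction for 8 of 8 genes in both genotypes under every alternative run, but not its size. The median was -2.43 in WT and -2.11 in Jak2VF without background correction, -2.57 and -2.25 in the authors' processed values, and -2.92 in WT without the 3 dimmest arrays. Leaving out 1 array at a time gave -4.27 to -3.41 in WT, with 7 to 8 genes past the threshold, and -4.08 to -3.45 in Jak2VF, with 8. In WT, 0 of the 8 were past it within either slide, with the 8 WT arrays alone or with brightness as a covariate, where 0, 0, 1 and 3 of the 9680 genes were; in Jak2VF it was 1 and 0 within the slides, where 9 and 2 of all genes were. Prg2 was the gene lost with single arrays left out and without the filter.

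For the genotype comparisons 0 of 8 passed in any setting, arrays left out included. The median with vehicle turned to 0.24 without the 3 dimmest arrays and ran from -0.86 to 0.065 with single arrays left out; with interferon it turned to 0.37 within slide 1, where Ear6 was at 0.0011, and ran from -0.73 to -0.24. The median difference of changes was 0.14 without background correction, 0.12 in the authors' values, 0.64 within slide 1, -0.94 without the 3 dimmest arrays, and -0.50 to 0.41 with single arrays left out. Epx in that difference turned to -0.26 with median centring, -0.013 within slide 2 and -0.42 without the 3 dimmest arrays. The cause was not tested. Over all genes 220 were called for interferon in WT, and 0 to 727 over these alternatives; single arrays left out gave 42 (WT interferon array 1) to 1999 (WT interferon array 2). The other counts were 1546 in Jak2VF (2 to 3105), 41 between genotypes with vehicle (2 to 48), 1717 with interferon (5 to 2426) and 11 for the difference of changes (0 to 75). With single arrays left out they were 712 (Jak2VF interferon array 4) to 2217 (WT vehicle array 3), 16 (Jak2VF vehicle array 4) to 404 (WT vehicle array 4), 1044 (Jak2VF interferon array 4) to 2301 (WT vehicle array 3), and 2 (WT vehicle array 1) to 25 (WT vehicle array 2). Median centring moved the median of all genes from 0.05 to -0.14 for interferon in WT and from -0.07 to 0.10 for the difference of changes, where the 8 genes had a median of -0.41. No paired analysis was possible because the labels carry no replicate numbers; the array numbers used here follow accession order and pair nothing. Dim signal limits Ear10 and Ear12 most, since 2 and 2 of their 8 interferon arrays were above background.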
